A study of Mus musculus with 12 samples.

Results

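The genes described here are 36 genes known from the choroid plexus epithelium, listed by name, and 35 of them were found among the 21532 genes of the count table of a mouse hippocampus RNA-seq study. The list was made from known plexus genes and not from a threshold on measured values, although earlier results of these data were known when it was made. Enpp2os was not matched by name to an identifier and is not analysed here. All 35 found genes passed the filter on low counts, and each had at least 3 counts in every library.

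The 12 samples were hippocampi of C57BL/6 wild-type mice, with 1 mouse per library and 3 mice per group. The groups were mice given stigmasterol, a plant sterol, and mice given vehicle, each with tissue taken 1 h or 6 h later. The sample labels disagree about the compound: the agent, the titles and the descriptions name stigmasterol, whereas the treatment field of every sample, vehicle samples included, names beta-sitosterol, a related plant sterol, at 100 mg/kg into the peritoneum. The group is called stigmasterol here. Sex, age and the make-up of the vehicle were not given in the sources used here, and no allele or agent other than these was named for any group.

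The choroid plexus is a folded sheet of epithelium that hangs in the brain ventricles and secretes the cerebrospinal fluid. Its cells move sodium, bicarbonate, chloride and water into the ventricle, seal the blood-fluid barrier with tight junctions, and release carrier proteins and growth factors, of which transthyretin (Ttr) is the most abundant. The plexus of the lateral ventricle lies against the hippocampus and is attached beside the fimbria. In whole tissue, fewer plexus cells and less RNA per plexus cell cannot be told apart.

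Total counts per library lay between 27613253 and 42043875, and levels are given as CPM, the counts of a gene scaled to the total of its library. The 6 hippocampal neuron markers summed to between 880 and 1219 CPM in the 12 libraries. The 35 plexus genes together summed to 2453, 5818 and 4035 CPM in the stigmasterol mice at 1 h (replicates 1, 11 and 8), and to 252, 3558 and 278 CPM in the vehicle mice at 1 h (replicates 4, 5 and 9). They summed to 1408, 5442 and 688 CPM in the stigmasterol mice at 6 h (replicates 13, 22 and 23), and to 3238, 1173 and 4967 CPM in the vehicle mice at 6 h (replicates 12, 14 and 21). Vehicle replicates 4 and 9 at 1 h stood apart at the low end. The comparisons that rest on them are given with and without them.

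Among the secreted proteins, Ttr, the carrier of thyroxine and of retinol-binding protein, stood at 1752, 4438 and 3085 CPM in the stigmasterol mice at 1 h and at 31.0, 2553 and 40.3 CPM in the vehicle mice at 1 h. At 6 h it stood at 903, 4099 and 356 CPM in the stigmasterol mice and at 2321, 702 and 3630 CPM in the vehicle mice. The groups overlapped at both times, and the highest library held 143 times the Ttr level of the lowest, or 12.5 times without vehicle replicates 4 and 9 at 1 h. The share of all counts that fell on Ttr ranged from 0.00308% in vehicle replicate 4 to 0.448% in stigmasterol replicate 11, both at 1 h. Ttr made up between 51.7% and 76.4% of the summed plexus level in 10 libraries, but 12.3% and 14.5% in vehicle replicates 4 and 9 at 1 h.

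**Figure D1:**
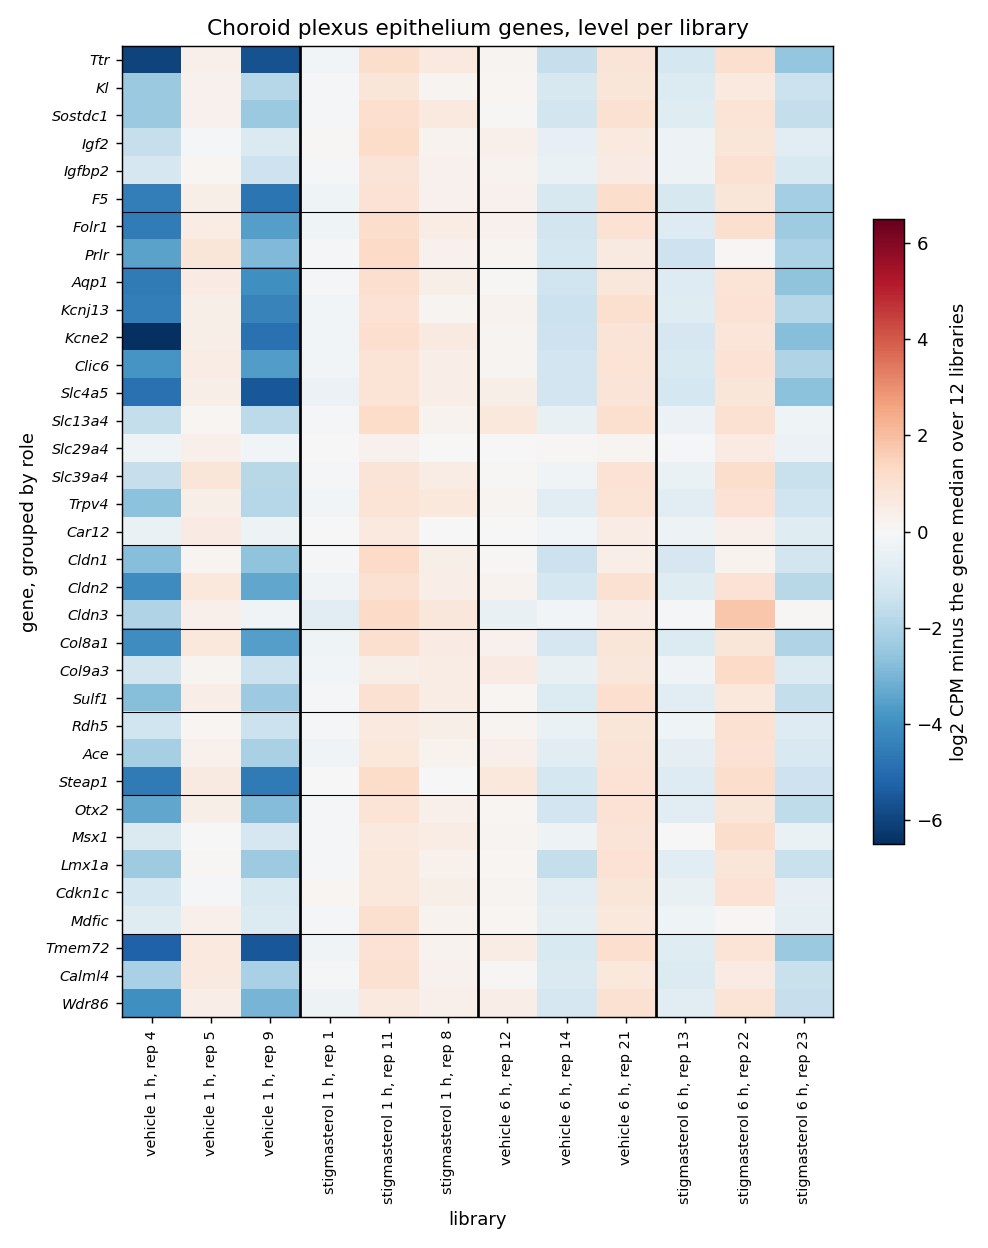
Level of each of the 35 plexus genes (rows, grouped by role) in each library (columns, grouped by treatment and time), drawn as log2 CPM minus the gene's median over the 12 libraries, with blue below and red above the median. Vehicle replicates 4 and 9 at 1 h are the bluest columns for 32 of the 35 genes, while Slc29a4 and Car12 change least along their rows.

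Igf2, a growth factor that the plexus and the meninges both make, stood at 8.53, 19.1 and 9.67 CPM in the stigmasterol mice at 1 h against 2.93, 7.89 and 4.27 CPM in the vehicle mice at 1 h. Every stigmasterol library was above every vehicle library at 1 h. At 6 h its levels were 6.5, 13.9 and 5.14 CPM against 10.3, 5.69 and 12.8 CPM, and the groups overlapped. Kl, the coreceptor of a bone-derived phosphate hormone and itself shed into the fluid, ran from 35 to 164 CPM in the 10 other libraries and stood at 17.6 and 25.9 CPM in vehicle replicates 4 and 9. Sostdc1, a secreted antagonist of BMP and Wnt signals, F5, a clotting factor, and Igfbp2, a binding protein for insulin-like growth factors, were likewise below their 10-library range in both. F5 had the widest gap of these 3, at 8.63 to 87.6 CPM in the 10 libraries and at 1.78 and 1.46 CPM in the pair.

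Folr1, which carries folate across the plexus, stood at 15.6, 41.1 and 26.2 CPM in the stigmasterol mice at 1 h and at 0.81, 26.3 and 1.55 CPM in the vehicle mice at 1 h. At 6 h it stood at 10.5, 38.6 and 3.83 CPM with stigmasterol and at 22.5, 8.13 and 35.9 CPM with vehicle. Prlr, the prolactin receptor, stood at 30.7, 76.8 and 39.5 CPM with stigmasterol and 2.96, 57.3 and 4.54 CPM with vehicle at 1 h. Its values at 6 h were 12.9, 35.2 and 7.81 CPM with stigmasterol and 37.8, 14.8 and 49.6 CPM with vehicle. For both receptors the groups overlapped at each time.

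Of the transport genes, Kcne2, an accessory subunit of potassium channels, had the widest range of all 35 genes, 220-fold between the highest and the lowest library and 14.7-fold over the 10 libraries without vehicle replicates 4 and 9 at 1 h. It stood at 8.53, 20.5 and 14.3 CPM with stigmasterol and at 0.09, 12.5 and 0.34 CPM with vehicle at 1 h, where the low values rest on 3 and 11 counts. At 6 h it stood at 4.40, 16.2 and 1.40 CPM with stigmasterol and at 10.6, 3.81 and 16.9 CPM with vehicle. Aqp1, the water channel of the apical membrane, had 13.3, 30.0 and 18.4 CPM against 0.59, 20.4 and 0.88 CPM at 1 h, and 7.87, 26.6 and 2.34 CPM against 15.1, 5.77 and 23.3 CPM at 6 h, stigmasterol first. Kcnj13, the inward-rectifying potassium channel Kir7.1, had 8.84, 19.0 and 11.1 CPM against 0.44, 13 and 0.49 CPM at 1 h, and 5.67, 18.8 and 2.71 CPM against 11.5, 3.70 and 20.5 CPM at 6 h. For all 3 genes 1 vehicle library at 1 h sat inside the stigmasterol range and the other two sat far below it.

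Clic6, a chloride channel protein, Slc4a5, a sodium-bicarbonate cotransporter, Trpv4, an osmosensitive cation channel, and Slc39a4, a zinc importer, were also lower in vehicle replicates 4 and 9 than in each of the 10 other libraries. Slc13a4, a sodium-sulfate cotransporter, stood at 25.5, 62.9 and 31.8 CPM with stigmasterol and 9.22, 29.4 and 8.47 CPM with vehicle at 1 h. Its highest vehicle value thus lay between stigmasterol replicates 1 and 8. Slc29a4, a monoamine transporter that is also made outside the plexus in the brain, varied less. At 1 h it stood at 56.8, 71.0 and 56.6 CPM with stigmasterol and 48.9, 74.1 and 51.3 CPM with vehicle. At 6 h it stood at 52.9, 83.1 and 44.6 CPM with stigmasterol and 60.0, 61.0 and 65.7 CPM with vehicle. Car12, a membrane carbonic anhydrase, ranged 2.62-fold over the 12 libraries and Slc29a4 ranged 1.86-fold, the narrowest ranges of the 35.

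Cldn1 and Cldn2, claudins of the tight junctions, were at or below 1.55 CPM in vehicle replicates 4 and 9 and between 2.56 and 32.6 CPM elsewhere. Cldn3, the third claudin, never passed 2.2 CPM, and its value in vehicle replicate 9, unlike that in replicate 4, lay within the range of the other libraries. Col8a1 and Col9a3, chains of short and fibril-associated collagens, Sulf1, an enzyme that trims heparan sulfate, Rdh5, a retinol dehydrogenase, Ace, the angiotensin-converting enzyme, and Steap1, a metalloreductase family protein, were all below their 10-library range in both libraries. Steap1 had 0.125 and 0.122 CPM there, 4 counts each, against 1.16 to 6.78 CPM elsewhere.

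Among the regulators, Otx2, the homeobox factor that the mouse plexus needs to form, stood at 8.41, 17.0 and 11.7 CPM with stigmasterol and 0.90, 11.9 and 1.34 CPM with vehicle at 1 h. At 6 h it stood at 5.85, 16.0 and 3.01 CPM with stigmasterol and 10.3, 3.92 and 17.6 CPM with vehicle, so the groups overlapped at both times. Cdkn1c, an imprinted inhibitor of the cell cycle, had 5.47, 8.0 and 6.58 CPM against 2.24, 4.58 and 2.5 CPM at 1 h, stigmasterol first, with no overlap. At 6 h it had 3.59, 9.56 and 3.40 CPM against 5.58, 3.01 and 8.70 CPM, with overlap. Msx1 and Lmx1a, homeodomain factors of the dorsal midline, Mdfic, a protein that binds transcription factors, and Tmem72, Calml4 and Wdr86, less studied plexus genes, were below the 10-library range in both low libraries. Tmem72 lay between 4.71 and 53.9 CPM in the 10 libraries and at 0.654 and 0.548 CPM in the pair.

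In all, 32 of the 35 genes were lower in vehicle replicates 4 and 9 than in each of the 10 other libraries. Slc29a4, Car12 and Cldn3 were not. These 2 libraries were set apart for their low plexus levels, so the count describes them and tests nothing. The share of all genes that met it was not counted. The highest library was stigmasterol replicate 11 at 1 h for 16 genes, stigmasterol replicate 22 at 6 h for 11 and vehicle replicate 21 at 6 h for 8. Outside the 2 low libraries, stigmasterol replicate 23 at 6 h was the lowest for 29 genes. High and low libraries were thus found in both treatments at 6 h. Expressed per kilobase of exon, median levels over the 12 libraries put Ttr first at 1717 CPM per kb. Igfbp2 followed at 27.6, Slc29a4 at 20.4, Col9a3 at 13.5 and Clic6 at 11.7 CPM per kb. Lmx1a, at 0.464 CPM per kb, and Cldn3, at 0.487 CPM per kb, were the lowest, and after Ttr, which was the highest in each library on this scale, the ranges of neighbours in the order overlapped.

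**Figure D2:**
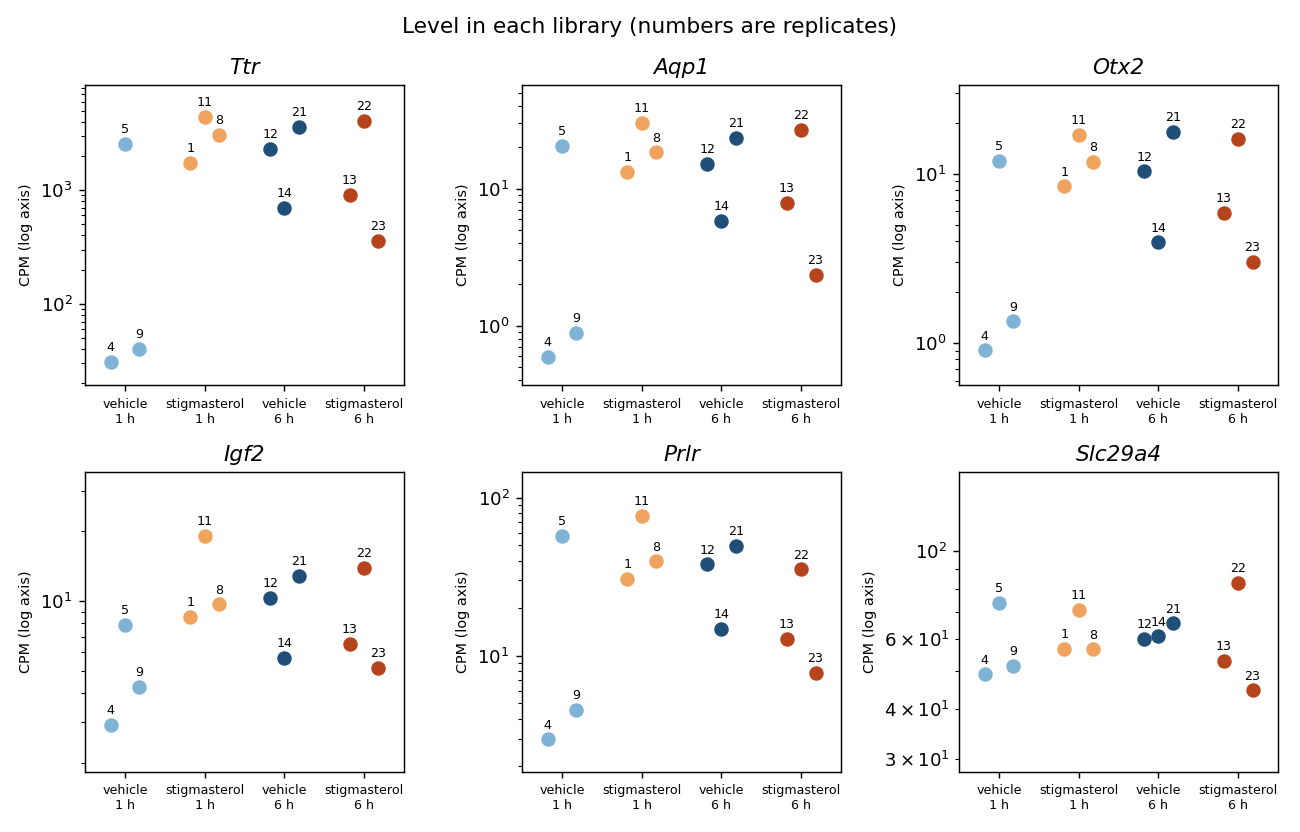
Level of Ttr, Aqp1, Otx2, Igf2, Prlr and Slc29a4 (points, 1 per mouse) by treatment and time, on a log axis of CPM. At 1 h vehicle replicate 5 lies within the stigmasterol range for Ttr, Aqp1, Otx2 and Prlr and replicates 4 and 9 lie far below it. For Igf2 all 3 vehicle mice lie below the stigmasterol mice, Slc29a4 has the narrowest range of these genes, and at 6 h the groups overlap.

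The relative level in vehicle replicates 4 and 9 at 1 h differed widely between the genes. As a share of vehicle replicate 5, the third vehicle mouse at 1 h, Ttr stood at 1.21% in replicate 4, with an exact 95% counting interval from 1.1 to 1.3, and at 1.58% in replicate 9, with an interval from 1.5 to 1.7. These intervals cover counting error only. Tmem72 stood at 1.69% and 1.41%, Kcne2 at 0.745% and 2.67%, Slc4a5 at 2.60% and 1.66%, and Aqp1 at 2.90% and 4.33%. Otx2 was at 7.57% and 11.2%, Kl at 15.6% and 22.9%, and Slc13a4 at 31.3% and 28.8%. Igf2 stood at 37.1% and 54.1%, Cdkn1c at 49.0% and 54.6%, Car12 at 51.9% and 56.6%, and Slc29a4 at 66.0% and 69.2%. The intervals for Slc29a4 ran from 61.8 to 70.5 and from 64.9 to 73.8. In both libraries 8 genes stood below 5% of replicate 5, 14 below 10%, 24 below 25% and 29 below 50%. The shares of all genes below these levels were not counted. The interval of Ttr and that of Slc29a4 did not touch in either library.

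**Figure D3:**
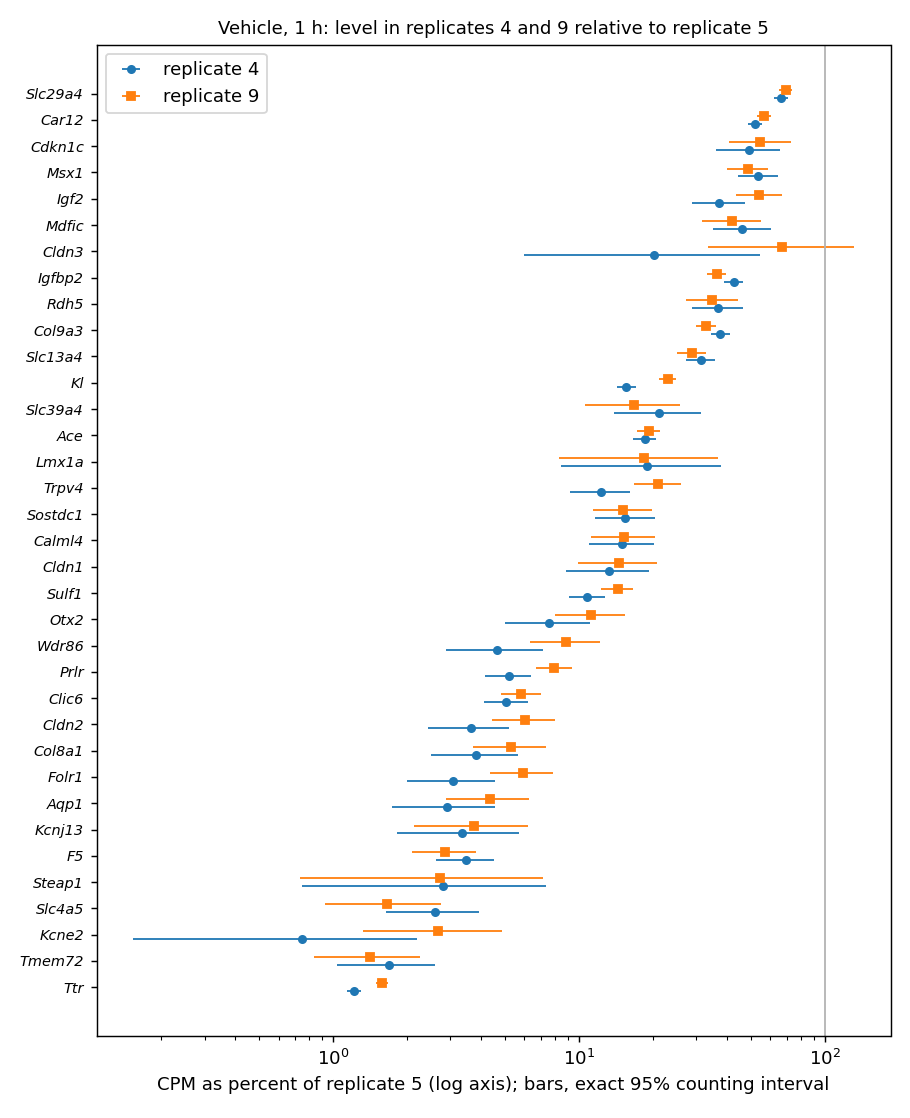
Level of each plexus gene in vehicle replicates 4 and 9 at 1 h as a percentage of vehicle replicate 5 at 1 h, on a log axis, with exact 95% counting intervals as bars. Ttr, Tmem72 and Kcne2 lie near the low end, and Car12 and Slc29a4 lie above 50%.

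The 10 other libraries still differed 12.5-fold in Ttr. The slope of log2 level on log2 Ttr was fitted with edgeR for all 18381 other genes over these 10 libraries, so that a slope of 1 means that a doubling of Ttr goes with a doubling of the gene. After Benjamini-Hochberg adjustment over all genes, 32 of the 34 plexus genes other than Ttr rose with Ttr, against 1.22% of all genes fitted, and none fell. The median slope was 0.68 for the plexus genes and 0.00 for all genes. The genes not called were Slc29a4, with a slope of 0.17 ± 0.04 (SE, adjusted p = 0.0892), and Cldn3, with 0.44 ± 0.15 (SE, adjusted p = 0.377). Without the 2 libraries farthest from the median in Ttr, stigmasterol replicate 23 and vehicle replicate 14 at 6 h, the number called was 25. The share of all genes called in that smaller fit was not counted.

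The slopes differed within the transport genes. The 4 steepest of the whole list were those of Kcne2, at 0.97 ± 0.05, Slc4a5, at 0.93 ± 0.05, Aqp1, at 0.92 ± 0.05, and the receptor Folr1, at 0.91 ± 0.04 (SE, edgeR over 10 libraries). Prlr, Kcnj13, Clic6, Tmem72, F5, Col8a1 and Cldn2 were also at 0.8 or above, 11 genes in all. Otx2 had 0.73 ± 0.05 and Kl 0.64 ± 0.04, among 12 genes between 0.5 and 0.8. The remaining 11 lay below 0.5, among them Igf2 at 0.46 ± 0.06, Slc13a4 at 0.44 ± 0.08 and Car12 at 0.32 ± 0.05. Across the 10 libraries Pearson's r with Ttr ran from 0.583 to 0.995 and was at least 0.9 for 28 genes, and Spearman's rho ran from 0.709 to 0.988. The largest two-sided permutation p among the 34 genes was 0.0767 for r and 0.0279 for rho. Without the 2 farthest libraries r ran from 0.714 to 0.993 and was at least 0.9 for 24 genes.

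**Figure D4:**
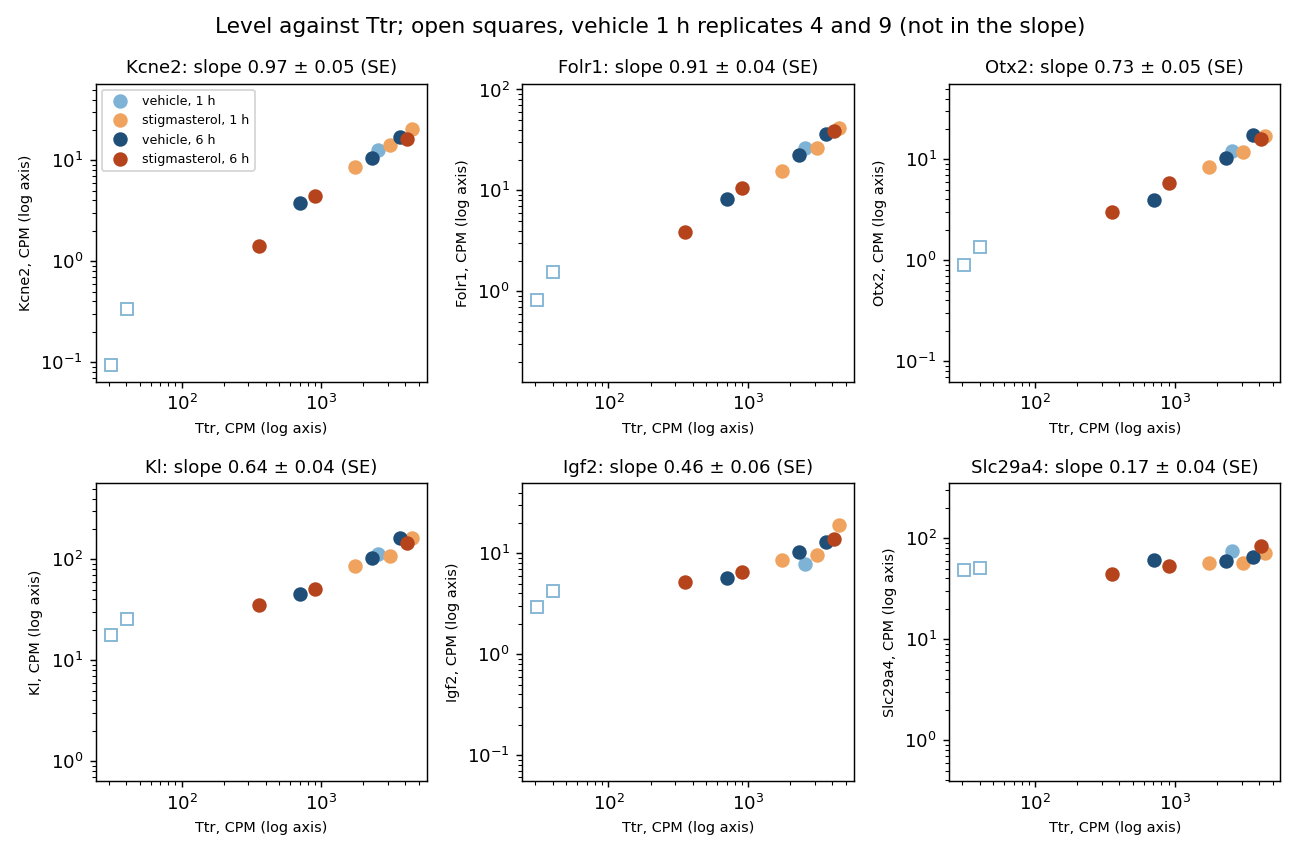
Level of selected plexus genes against Ttr in each library, both as CPM on log axes, with points marked by treatment and time. Kcne2 and Folr1 climb nearly in step with Ttr over the 10 libraries of the slope fit, while Slc29a4 stays between 44.6 and 83.1 CPM. In vehicle replicates 4 and 9 at 1 h, Ttr stood at 1.21% and 1.58% of vehicle replicate 5. Folr1 stood higher there, at 3.08% and 5.91%, and Kcne2 at 0.745% and 2.67%.

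Promoter sequence is shown for 4 of these genes, the steepest slope with a single listed promoter, the shallowest slope, and the pair that hold the core motif bound by OTX2. RefSeq (GRCm38.p6) listed promoters for 27 of the plexus genes, 38 promoters in all, and the 250 bases upstream of each start were searched on both strands. The OTX2 core TAATCC was found in 2 of the 38, or 5.26%, against 6.25% of the 32851 mouse promoters listed. The TATA-box letters TATAAA were found in 6 of the 38, or 15.8%, against 12.4% of all. The sequences are given 5′ to 3′ on the gene's strand and end at the base before the start, with the motif in capitals, as TAATCC for Ace, as its reverse complement for Otx2, and as the reverse complement of TATAAA for the Slc4a5 and Slc29a4 promoters. In Ace a TATAAA on the other strand overlaps the capitals. These matches describe the letters and not the binding of a factor.
Ace, chr11:105967698-105967947, plus strand: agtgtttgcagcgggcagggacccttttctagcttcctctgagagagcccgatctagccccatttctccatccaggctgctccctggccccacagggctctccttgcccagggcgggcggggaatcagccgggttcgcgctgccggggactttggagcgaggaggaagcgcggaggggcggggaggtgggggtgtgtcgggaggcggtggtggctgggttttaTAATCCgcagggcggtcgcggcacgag
Otx2, chr14:48665110-48665359, minus strand: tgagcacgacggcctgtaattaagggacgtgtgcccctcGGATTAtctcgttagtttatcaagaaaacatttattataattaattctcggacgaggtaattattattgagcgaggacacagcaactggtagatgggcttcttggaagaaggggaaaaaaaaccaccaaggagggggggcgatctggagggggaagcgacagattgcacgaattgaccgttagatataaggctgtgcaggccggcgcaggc
Slc4a5, chr6:83237125-83237374, plus strand: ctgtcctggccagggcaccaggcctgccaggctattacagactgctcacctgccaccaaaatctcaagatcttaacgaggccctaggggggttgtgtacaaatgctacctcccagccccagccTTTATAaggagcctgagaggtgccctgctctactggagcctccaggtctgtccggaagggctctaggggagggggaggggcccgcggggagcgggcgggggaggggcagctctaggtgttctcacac
Slc29a4, chr5:142701851-142702100, plus strand: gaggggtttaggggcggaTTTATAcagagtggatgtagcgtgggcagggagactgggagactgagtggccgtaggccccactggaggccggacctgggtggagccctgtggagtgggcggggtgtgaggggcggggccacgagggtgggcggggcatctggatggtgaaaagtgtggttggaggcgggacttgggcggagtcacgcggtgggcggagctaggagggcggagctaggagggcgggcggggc

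The motif starts 27 bases upstream of the start in Ace, 211 in Otx2, 127 in Slc4a5 and 232 in Slc29a4. The slope on Ttr was 0.54 for Ace and 0.73 for Otx2. In vehicle replicates 4 and 9 at 1 h, Ace stood at 18.5% and 19.2% of the level of replicate 5.

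Genes outside the list that were most like Ttr were taken by Pearson's r of log2 CPM over the same 10 libraries, as a description. The 10 closest were Wfdc2 (r = 0.997), Col8a2, 1500015O10Rik, Abca4, Enpp2, Drc7, Mfrp, Rab11fip1, Cdh3 and Epn3 (r = 0.978). Enpp2, the enzyme autotaxin that makes lysophosphatidic acid, ran from 312 to 2080 CPM in the 10 libraries and stood at 11.3% and 12% of replicate 5 in the 2 low libraries. Mfrp, a frizzled-related membrane protein, stood at 1.41% and 1.77%, near Ttr itself. Rab11fip1, a protein of recycling endosomes, stood at 63.4% and 65.6%, with an r of 0.985 and a slope of 0.34. Enpp2, Mfrp and Epn3 also stand in the list of other plexus genes that follows.

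A second list of 20 plexus epithelium genes was examined in the same fit. In it 16 of 20 rose with Ttr after adjustment over all genes, with a median slope of 0.39. They included Krt18, a keratin, at 0.68, Lbp, the lipopolysaccharide-binding protein, at 0.52, Htr2c, the serotonin 2C receptor, at 0.32 and Trpm3, a cation channel, at 0.29. Among 18 genes of fluid secretion and acid-base transport that brain cells share, 5 rose with Ttr, namely Slc4a2, an anion exchanger, at 0.36, Cab39l, a kinase cofactor, at 0.32, Car14 at 0.32, Fxyd1, a sodium pump regulator, at 0.21 and Stk39, a kinase of the chloride cotransporters, at 0.17. None was called among the 11 ependymal, 13 meningeal, 7 stromal and endothelial, 6 hippocampal neuron and 7 striatal neuron markers tested, with median slopes of 0.16, 0.09, 0.06, -0.04 and 0.33.

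The first comparison asked which genes differ 1 h after stigmasterol. All 35 plexus genes had fitted levels above vehicle, against 49.6% of all 18382 genes tested. Most of these plexus genes rise and fall together across libraries, so here and below their directions are not 35 separate results. The median log2 fold change was 1.31 for the list and 0.00 for all genes. None passed an adjusted p of 0.05 in edgeR's quasi-likelihood test, in which 0% of all genes passed, and the smallest adjusted p of a plexus gene was 0.649. At an unadjusted p of 0.05, 6 of 35 passed in edgeR against 7.52% of all genes, 5 in DESeq2 against 6.26%, and 30 in limma-voom against 7.62%. DESeq2 called 20 genes of the whole table and no plexus gene.

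The smallest p values belonged to Igf2, with a log2 fold change of 1.31 ± 0.45 (SE, edgeR adjusted p = 0.649), Cdkn1c with 1.11 ± 0.43 (adjusted p = 0.649), Slc13a4 with 1.36 ± 0.54 (adjusted p = 0.655) and Cldn1 with 1.70 ± 0.68 (adjusted p = 0.655). Igf2 and Cdkn1c were also the only plexus genes whose groups did not overlap, 2 of 35 against 8.23% of all genes that were higher without overlap. Ttr had 1.82 ± 1.31 (adjusted p = 0.735), Kcnj13 1.51 ± 0.99 (adjusted p = 0.716) and Otx2 1.41 ± 0.81 (adjusted p = 0.694). Ttr had the largest fold change and also the largest SE of the 35 genes. The size depended on the method: limma-voom put Ttr at 4.30, Kcnj13 at 3.19 and the median of the list at 2.03. DESeq2 put them at 1.82, 1.48 and 1.30.

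These fold changes moved with vehicle replicates 4 and 9. Without both, which leaves 1 vehicle mouse at 1 h that is assumed to vary like the other groups, the median of the 35 genes was 0.05, with 23 above 0 and 12 below and a range from -0.31 to 0.65, and none had an unadjusted p under 0.05 in edgeR. Ttr then had 0.28 ± 1.09, Kcnj13 -0.00 ± 0.92, Otx2 0.05 ± 0.81, Slc13a4 0.44 ± 0.66 and Cldn1 0.44 ± 0.69. Igf2 kept the largest positive value of the list at 0.65 ± 0.60, followed by Cdkn1c at 0.54 ± 0.62 (SE, edgeR adjusted p = 1.00 for the list). Without replicate 5 in place of these, the median was 3.04.

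Markers of other cell types were also uneven at 1 h. The 6 hippocampal neuron markers summed to 1044, 965 and 880 CPM with stigmasterol and to 1075, 1219 and 1181 CPM with vehicle. Every stigmasterol library was thus below every vehicle library in this sum. Much of the sum was Zbtb20, at 492, 478 and 400 CPM with stigmasterol and 587, 638 and 612 CPM with vehicle. The groups of Prox1 overlapped, at 157, 130 and 111 CPM against 152, 186 and 167 CPM. Of the 6 markers, 5 had a fold change below 0. The smallest p values were those of Zbtb20 at -0.42 ± 0.13 and Prox1 at -0.34 ± 0.11 (SE, edgeR adjusted p = 0.649 for each). The 11 ependymal markers summed to 66.2, 92.6 and 82.9 CPM with stigmasterol and to 50.9, 68.5 and 51.0 CPM with vehicle, and all 11 had a fold change above 0. The 13 meningeal markers summed to 144, 240 and 102 CPM with stigmasterol and to 115, 102 and 114 CPM with vehicle, and 12 had a fold change above 0. The 7 striatal neuron markers summed to 177, 182 and 391 CPM with stigmasterol and to 156, 187 and 176 CPM with vehicle. Of these 4 lists none held a marker at 0 in all libraries or past the adjusted threshold, and the meningeal Slc22a2 stayed below 1 CPM throughout. Without vehicle replicates 4 and 9 the median log2 fold changes were 0.36 for the ependymal, 0.90 for the meningeal, 0.94 for the striatal and -0.26 for the hippocampal neuron list, against 0.40, 0.74, 1.06 and -0.15 with them. Their part in the plexus result was not tested.

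The other plexus lists had smaller shifts at 1 h. All 20 genes of the second epithelial list were above vehicle with a median of 0.80, and its smallest p values were those of Gpx8 at 0.66, Sgms2 at 0.94 and Tcn2 at 0.46 on the log2 scale. Of the 18 transport genes 16 were above, with a median of 0.17 and with Slc12a2, the chloride cotransporter NKCC1, at 0.45 ± 0.18, Slc4a2 at 0.78 ± 0.36 and Cab39l at 0.65 ± 0.31. Of the 11 retinoid and folate genes 10 were above, with a median of 0.23, with Rbp4, the plasma carrier of retinol, at 0.69 ± 0.17 and Aldh1a2, a retinoic acid-making enzyme, at 0.63 ± 0.35 (SE). No gene of these lists passed the adjusted threshold in either direction, and the smallest adjusted p among them was 0.639. Without vehicle replicates 4 and 9 the medians were 0.12 for the second epithelial list, with 16 of 20 above 0, 0.09 for the transport genes and 0.10 for the retinoid and folate genes.

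**Figure D5:**
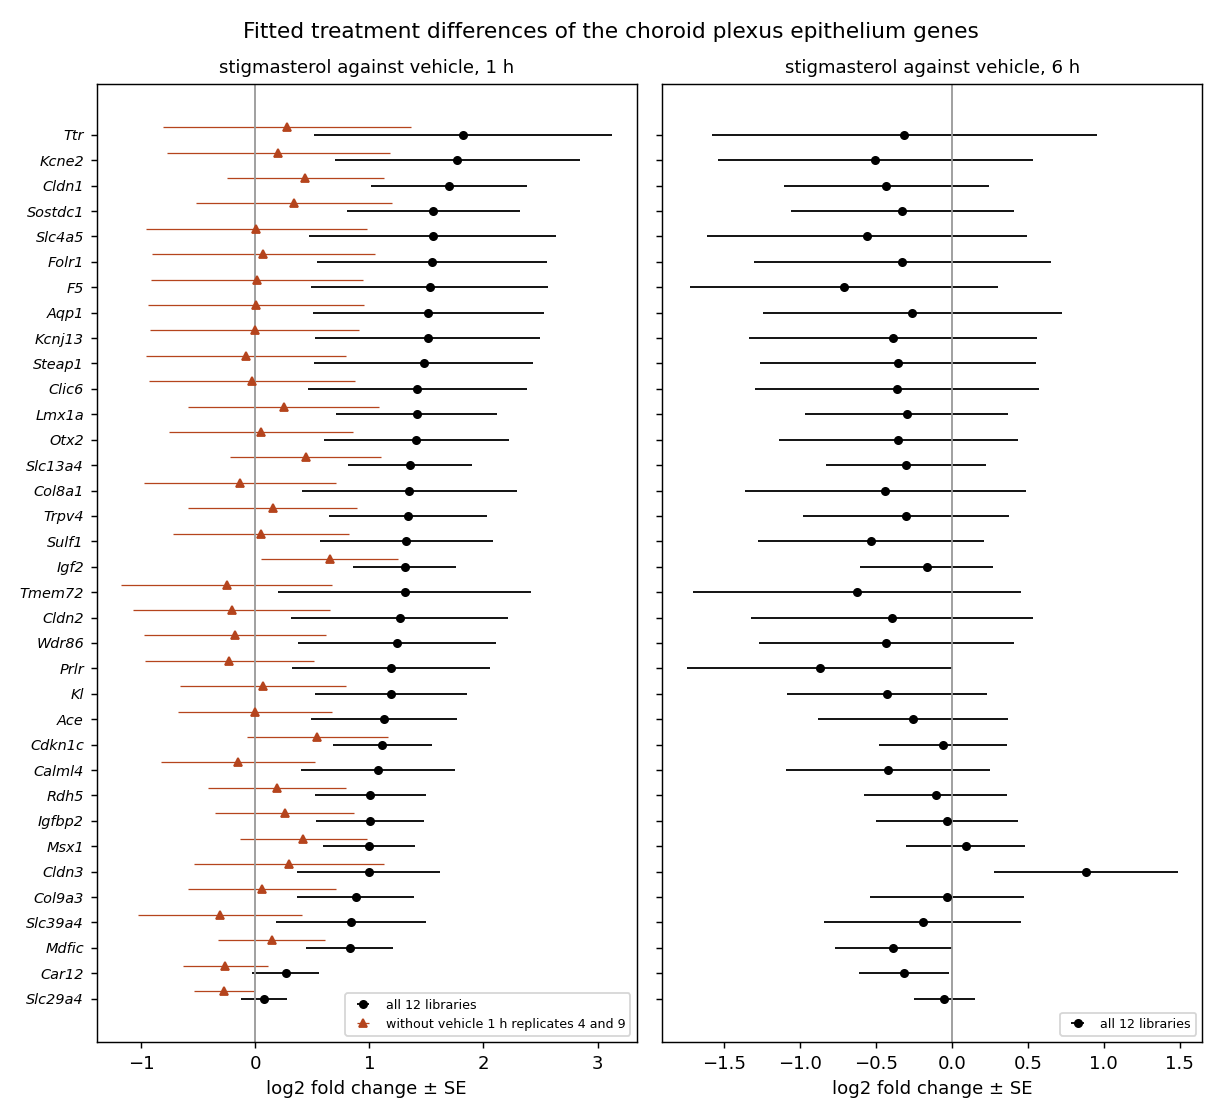
Log2 fold changes of stigmasterol against vehicle at 1 h and at 6 h for the 35 plexus genes (points, with SE as bars), with all 12 libraries (black) and, for 1 h, also without vehicle replicates 4 and 9 (red). At 1 h all 35 points lie above 0 with all libraries and they gather near 0 without the pair, and at 6 h 33 lie below 0.

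At 6 h the direction was the opposite and smaller. Fitted levels were below vehicle for 33 of the 35 genes and above it for 2, with 50% of all genes above 0, and the median log2 fold change was -0.33. No plexus gene passed the adjusted threshold in edgeR, where 0% of all genes did. None passed an unadjusted p of 0.05 either, against 4.10% of all genes, and DESeq2 called 2 genes, no plexus gene among them. The smallest p values were those of Cldn3 at 0.88 ± 0.61, Car12 at -0.32 ± 0.30, Mdfic at -0.39 ± 0.38 and Prlr at -0.87 ± 0.87 (SE, adjusted p = 1.00 for each). Ttr had -0.31 ± 1.27, Kcnj13 -0.39 ± 0.95, Otx2 -0.35 ± 0.79 and Igf2 -0.17 ± 0.44. The groups of every plexus gene overlapped, whereas 8.22% of all genes had groups that did not. Leaving out stigmasterol replicate 23 or vehicle replicate 21 turned the sign of Ttr, Kcnj13, Otx2 and Igf2, to 0.17, 0.05, 0.05 and 0.10 without the first and to 0.24, 0.26, 0.22 and 0.09 without the second. Ttr was also at 0.01 without stigmasterol replicate 13.

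Whether the effect of the compound differed between the times was tested as the effect at 6 h minus that at 1 h. All 35 plexus genes were below 0, with 49.0% of all genes above 0, and the median was -1.68. None passed the adjusted threshold in edgeR, and 0% of all genes did. At an unadjusted p of 0.05, 4 plexus genes passed against 2.31% of all genes: Igf2 at -1.48 ± 0.63, Mdfic at -1.21 ± 0.54, Cldn1 at -2.13 ± 0.96 and Slc13a4 at -1.66 ± 0.76 (SE, adjusted p = 1.00 for each). DESeq2 called none in the whole table, and limma-voom had 25 plexus genes at an unadjusted p of 0.05 against 2.71% of all genes. Without vehicle replicates 4 and 9 at 1 h the median was -0.37 and no plexus gene passed the unadjusted threshold.

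The times were also compared within each treatment. In vehicle mice all 35 plexus genes were higher at 6 h than at 1 h by the fit, against 52.0% of all genes, with a median of 1.06. None passed the adjusted threshold, which 0.675% of all genes passed, and 2 passed an unadjusted p of 0.05 in edgeR against 21.2% of all genes. At that unadjusted p, limma-voom had 19 plexus genes against 21.1% of all genes and DESeq2 had 1 against 17.7%. The 2 of edgeR were Slc13a4 at 1.36 ± 0.55 (SE, edgeR adjusted p = 0.179) and Msx1 at 0.93 ± 0.41 (adjusted p = 0.213), followed by Igf2 at 0.93 ± 0.45 (adjusted p = 0.255) and Cdkn1c at 0.89 ± 0.44 (adjusted p = 0.263). No plexus gene had groups without overlap, against 33.3% of all genes. This comparison uses the same low libraries as the one at 1 h, and without them the median was -0.18 with 9 genes above 0 and none at an unadjusted p under 0.05. DESeq2 called 1117 genes, limma-voom 87, and neither called a plexus gene.

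In stigmasterol mice, none of whose libraries was as low, 32 plexus genes were lower at 6 h than at 1 h and 3 were higher, with 46.7% of all genes above 0 and a median of -0.57. None passed the adjusted threshold, which 0.00544% of all genes passed, and none passed an unadjusted p of 0.05 against 9.99% of all genes. The smallest p values were those of Mdfic at -0.73 ± 0.38 (SE, edgeR adjusted p = 0.540), Cldn1 at -1.14 ± 0.66 (adjusted p = 0.579), Prlr at -1.40 ± 0.87 (adjusted p = 0.608) and Car12 at -0.42 ± 0.30 (adjusted p = 0.651). The groups of every plexus gene overlapped here too, against 13.5% of all genes without overlap. DESeq2 called 91 genes and no plexus gene.

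The same comparisons were run with the log2 Ttr level of each library as a covariate, a choice made after the data were seen. Each gene was adjusted by 1 slope on log2 Ttr that all groups shared. Vehicle replicates 4 and 9 at 1 h, at 31.0 and 40.3 CPM of Ttr, lay below every other library. The lowest of the others was stigmasterol replicate 23 at 6 h, at 356 CPM. The fit therefore extends the slope across a gap and does not compare mice of equal Ttr there. With this covariate the median of the 34 other genes at 1 h was -0.30, with 4 above 0. At 6 h it was -0.07, with 9 above 0. No plexus gene passed the adjusted threshold in any of the 5 comparisons. The unadjusted threshold used for the other fits was passed by 9 of the 34 genes at 1 h and 5 at 6 h. It was also passed by 5 for time in vehicle mice, 2 for time in stigmasterol mice and 1 for the difference of the effects. Those at 1 h were all below 0, whereas the 6 that passed at 1 h without the covariate were all above 0. The shares of all genes that passed, or lay above 0, with the covariate were not counted, so these counts have no baseline. Prlr had the smallest p of the list for time: it was at -0.68 ± 0.15 at 6 h against 1 h in stigmasterol mice (SE, edgeR adjusted p = 0.252) and at -0.65 ± 0.18 in vehicle mice (adjusted p = 0.210). Per 1000 counts of Ttr, Prlr had 17.5, 17.3 and 12.8 counts in the stigmasterol mice at 1 h and 14.2, 8.59 and 22 counts at 6 h, and the groups overlapped. In vehicle mice it had 22.4 counts in replicate 5 at 1 h and 16.3, 21.1 and 13.7 counts at 6 h, but 95.5 and 113 counts in replicates 4 and 9, where Ttr was lowest.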

How the data were processed

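RNA of 12 mouse hippocampi was sequenced. Per the labels' protocols, the RNAqueous-Micro kit gave total RNA, a RIN of 7 or more was required, and library chemistry was TruSeq mRNA. The submitters' processing notes name STAR 2.4.2a, HTSeq 0.6.1p1, cutadapt, bcl2fastq 2.17.1.14, DESeq and DESeq2 1.10.1, and the build GRCm38, with no role or order. The authors deposited whole-number counts per gene. They also deposited a normalized signal, which is each library's counts divided by a single size factor. Strandedness was not given, and 10 of the 35 genes share exon bases with another gene (Kcnj13 with Gigyf2, Rdh5 with Bloc1s1, Otx2 with Otx2os1, and Igf2, F5, Prlr, Cldn3, Col9a3, Ace and Cdkn1c with others), so their counts may be shared.

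Symbols, exon lengths and coordinates came from GENCODE M21 by identifier. Counts were tested with edgeR 4.0.16 in R 4.3.3: filterByExpr kept 18382 genes, TMM scaled the totals, and the quasi-likelihood fit took all 12 libraries, each group having its own coefficient (common biological coefficient of variation 0.123). The p values were adjusted by Benjamini-Hochberg over all genes, with a threshold of 0.05. SE is the absolute log2 fold change over the square root of F, and CPM uses TMM-scaled totals. The slope on Ttr used log2 Ttr as the only covariate over 10 libraries. Pearson's r and Spearman's rho used log2 CPM (prior count 2) with 100000 permutations, whose smallest possible p is 1e-05, and raw p values are given for 34 genes. The design had planned to adjust these over the members, but the adjusted p is instead that of the edgeR slope over all genes. The edgeR group fit was tested before use on simulated counts with known changes between the 1 h groups. Every simulated gene had the same spread, so the wider spread of genes such as Ttr was not covered. The slope on Ttr, the Ttr covariate fit, DESeq2 and limma were not tested in this way. Counting intervals for the ratio of counts are exact at 95%.

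The plexus genes, the other 8 lists, the tests and the alternatives were chosen with earlier results of these data known. Fold changes are given for Ttr, Kcnj13, Otx2 and Igf2 at 1 h and 6 h, for the 4 plexus genes with the smallest p in each of the 5 comparisons, and for up to 3 members of each other plexus list. A gene that this rule names is not reported here. Prlr with the Ttr covariate was named after its values were seen. Alternatives were upper-quartile factors, DESeq2 size factors, all genes unfiltered, DESeq2 1.42.0, limma-voom and limma-trend (limma 3.58.1, on the deposited normalized values plus 1 for the latter), only the groups compared, leaving out each library, leaving out vehicle replicates 4 and 9 at 1 h together, and, added after the data were seen, log2 Ttr as covariate.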

Additional observations from a re-analysis of the deposited data

How the results depend on the processing

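No plexus gene passed the adjusted threshold in any of the 5 comparisons under any alternative run. No paired analysis was possible because the groups share no replicate numbers. Leaving out each library in turn moved the plexus median log2 fold change between 0.86 and 3.04 at 1 h, -1.25 and 0.13 at 6 h, and -3.36 and -1.20 for the difference of the effects. For 6 h against 1 h it ran between 0.61 and 2.57 in vehicle and between -1.49 and -0.17 in stigmasterol mice. The values of 3.04, -3.36 and 2.57 came without vehicle replicate 5 at 1 h, and that of -1.49 without stigmasterol replicate 22 at 6 h. The median difference of the effects was -0.37 without vehicle replicates 4 and 9 at 1 h together. With the Ttr covariate it was 0.28, and the median at 1 h was -0.30.

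Signs turned without vehicle replicates 4 and 9 for Kcnj13 at 1 h (-0.00399). With the Ttr covariate they turned for Kcnj13 at 1 h (-0.28) and 6 h (0.0195), for Otx2 at 1 h (-0.31), and for 6 h against 1 h in vehicle mice for Igf2 (-0.0295) and Cdkn1c (-0.0598); the cause was not tested. Leaving out 1 library gave ranges at 6 h from -1.82 to 0.24 for Ttr, -0.71 to 0.10 for Igf2, -1.49 to 0.26 for Kcnj13 and -1.25 to 0.22 for Otx2. The number of plexus genes that rose with Ttr was 31 to 33 without 1 library, and 25 without 2, where fewer libraries were fitted. The shares of all genes called in these fits were not counted. Over the whole table, genes called for 6 h against 1 h in vehicle mice ranged from 0 to 582 without 1 library, and were 187 with upper-quartile factors, 1771 with only the groups compared and 1117 in DESeq2. Low counts limit Cldn3, and Kcne2 and Steap1 in vehicle replicates 4 and 9.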
